A study of Mus musculus with 16 samples.

Results

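Expression of 8 genes of lytic and caspase-dependent cell death, Ripk1, Ripk3, Mlkl, Zbp1, Casp8, Casp1, Casp4 and Gsdmd, was examined in the intestine after loss of Cul4b, an X-linked gene for the scaffold of a CUL4B-RING ubiquitin ligase. The genes were taken by symbol, and each of the 8 had 1 row in every table, of 52636 genes in the crypt and KOCAG organoid tables and 54532 in the KOIEC organoid table. RNA-seq covered 16 libraries in 3 experiments on the C57BL/6 background. Crypts of the small intestine, the epithelial pockets that hold the stem cells, came from 4 WT and 4 KOIEC samples (pVillin-Cre; Cul4b fn/Y). Organoids, epithelial cultures grown from crypts, came from 2 WT and 2 KOIEC samples, and from 2 WT and 2 KOCAG samples (CAG-CreERT2; Cul4b fn/Y).

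The fn allele is the conditional Cul4b allele, carried over a Y chromosome, so the animals were males. pVillin-Cre deletes it throughout the intestinal epithelium from development on and leaves Cul4b in other cells of the gut. CAG-CreERT2 is a broadly active recombinase that needs 4-hydroxytamoxifen, which was added to the cultures. The WT control of the KOIEC mice is described as Cul4b fn/Y without Cre. Whether the WT organoids of the inducible experiment carried CreERT2 or received the drug is not given in the sources used here, so deletion and drug exposure cannot be told apart there. The mice were 8 to 16 weeks old in most experiments of the study, and the age behind each library is not given in the sources used here. The study calls its samples biological replicates, while the labels do not tie them to separate mice or cultures, so p-values measure the spread between these libraries.

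Necroptosis is a lytic death in which the kinase RIPK3 phosphorylates the pseudokinase MLKL, which then permeabilizes the plasma membrane. RIPK3 is engaged through a shared interaction motif by RIPK1, downstream of death receptors, or by ZBP1, a sensor of Z-form nucleic acids that is itself induced by interferon, and caspase-8 holds this route in check by cleaving the kinases. Pyroptosis runs through the inflammatory caspases, caspase-1 in inflammasomes and caspase-11 (the product of mouse Casp4) on cytosolic lipopolysaccharide, which cleave gasdermin D (Gsdmd) into a pore-forming fragment. In the gut, epithelial loss of caspase-8 is known to cause RIPK3-dependent loss of Paneth cells and enterocytes, and inflammasomes of epithelial cells drive the expulsion of infected enterocytes. Transcript levels do not report whether these proteins are cleaved or phosphorylated.

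The upstream sequences of 4 of the genes that were called in the KOCAG organoids are shown to set their base composition side by side, since Ripk3, Mlkl and Casp8 rose there and Casp1 fell. Each is the 250 bases upstream of the RefSeq transcript start on GRCm38.p6, written 5′ to 3′ on the strand of the gene in lower case, with CpG dinucleotides in capitals. The windows are chr14:55788858-55789107 on the minus strand for Ripk3, chr8:111338206-111338455 on the minus strand for Mlkl, chr1:58802252-58802501 on the plus strand for Casp8 and chr9:5298267-5298516 on the plus strand for Casp1. The Casp8 window lies inside the gene as annotated for the counts (chr1:58795374-58847503), so it precedes an internal transcript start and not the 5′ end of that gene.
Ripk3: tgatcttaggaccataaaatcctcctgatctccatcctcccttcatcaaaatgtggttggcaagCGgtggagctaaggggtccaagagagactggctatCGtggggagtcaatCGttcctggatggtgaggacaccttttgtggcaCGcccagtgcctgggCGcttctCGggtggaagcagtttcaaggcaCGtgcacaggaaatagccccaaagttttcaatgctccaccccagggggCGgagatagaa
Mlkl: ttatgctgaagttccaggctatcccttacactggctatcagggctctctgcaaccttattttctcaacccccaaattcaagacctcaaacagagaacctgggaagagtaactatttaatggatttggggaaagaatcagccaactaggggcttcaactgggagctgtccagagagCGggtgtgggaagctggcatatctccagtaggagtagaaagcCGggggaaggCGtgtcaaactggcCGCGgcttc
Casp8: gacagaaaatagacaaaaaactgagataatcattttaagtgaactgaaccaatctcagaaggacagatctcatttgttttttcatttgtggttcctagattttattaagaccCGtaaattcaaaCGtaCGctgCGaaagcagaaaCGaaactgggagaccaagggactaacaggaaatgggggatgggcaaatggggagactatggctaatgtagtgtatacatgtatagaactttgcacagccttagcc
Casp1: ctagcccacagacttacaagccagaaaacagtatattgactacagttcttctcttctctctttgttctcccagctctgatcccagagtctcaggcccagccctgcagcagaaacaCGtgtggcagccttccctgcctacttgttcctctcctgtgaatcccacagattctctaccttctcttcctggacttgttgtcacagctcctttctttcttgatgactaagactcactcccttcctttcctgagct
There were 8 CpG dinucleotides upstream of Ripk3, 5 upstream of Mlkl, 5 upstream of Casp8 and 1 upstream of Casp1, against a median of 6 and quartiles of 2 and 16 over 32851 mouse promoters. The Casp1 window thus lay in the CpG-poor range, and 7.87% of promoters had fewer. The core of the interferon-stimulated response element was searched as GAAA, any 2 bases and GAAA on both strands. It was in none of the 6 member genes with an entry in the RefSeq table (Ripk1, Ripk3, Mlkl, Casp8, Casp1 and Casp4). Over all genes with an entry, 3.46% had it in at least 1 promoter. The gamma-activated sequence, searched as TTCNNNGAA on both strands, was in 1 of the 6, against 8.13% of all genes with an entry. It was in the second of 2 Ripk1 promoters, with matches at -108 to -100 and at -11 to -3 from the start. Zbp1 and Gsdmd had no entry.

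The libraries held 7348191 to 16881395 counts, and the floor of 3 counts was 0.178 to 0.408 CPM, the count relative to the library total. Cul4b itself fell by 4.56 on the log2 scale in the crypts, from 33.9 ± 3.01 to 1.43 ± 0.632 CPM (SD, n = 4), by 5.50 in the KOIEC organoids and by 4.02 in the KOCAG organoids (edgeR adjusted p = 0.000169, 0.0311 and 1.93e-06). The 6 epithelial markers summed to between 5298 and 9567 CPM over the 16 libraries. Markers of T cells and intraepithelial lymphocytes summed to 25.03 to 127 CPM in WT crypts and 59.4 to 402 in KOIEC crypts, but to at most 2.69 in any organoid library, where Cd3d, Cd8a, Trdc, Gzma, Gzmb and Cd2 were at 0 in both experiments. The crypt libraries differed in mitochondrial ribosomal RNA: 18.9 to 25.2 CPM in WT replicate 1 and KO replicates 1 to 3 (low class), 834 and 1078 in WT replicate 4 and KO replicate 4 (middle class), and 2840 and 2873 in WT replicates 2 and 3 (high class). The high class held WT libraries only, so each crypt result is also given within the low and middle classes where it bears on a call. Each of those classes held only 1 WT library, so differences within them have no measured spread in WT and no test.

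Per length, the 8 genes spanned a wide range of levels in WT samples, and Casp1 led in all 3 experiments. Levels between genes are given as RPKM (the TMM-scaled CPM per kilobase of the table's gene length). In WT crypts Casp1 stood at 112 ± 15.1 RPKM (SD, n = 4), followed by Gsdmd at 51.6 ± 24.0, Ripk3 at 34.6 ± 3.45 and Casp8 at 32.2 ± 2.88. Mlkl at 8.31 ± 0.982, Casp4 at 8.28 ± 1.54, Zbp1 at 5.31 ± 1.52 and Ripk1 at 4.65 ± 0.291 formed the lower tier. The steps from Casp1 to Gsdmd and from Casp8 to Mlkl exceeded 1 SD on each side. From Casp4 to Zbp1 the intervals of 1 SD touched while the libraries themselves did not overlap (6.91 to 9.91 and 3.06 to 6.29 RPKM), and the libraries of the other neighbours overlapped.

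In WT KOIEC-experiment organoids Casp1 was at 57.7 ± 8.0 RPKM (SD, n = 2), with Casp8 at 30.9 ± 0.689, Ripk3 at 29.7 ± 7.20 and Gsdmd at 23.6 ± 3.96 below it. Ripk1 at 4.97 ± 0.0172, Casp4 at 3.96 ± 0.502 and Mlkl at 2.95 ± 0.145 came next. The steps from Casp1 to Casp8, from Gsdmd to Ripk1, from Ripk1 to Casp4 and from Casp4 to Mlkl exceeded 1 SD on each side. Ripk3 did not differ beyond the spread from either of its neighbours, Casp8 and Gsdmd.

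In WT KOCAG-experiment organoids the order was Casp1 at 70.4 ± 3.04, Gsdmd at 30.3 ± 0.229, Ripk3 at 27.7 ± 0.147, Casp8 at 25.7 ± 0.225, Casp4 at 9.30 ± 0.116, Ripk1 at 4.61 ± 0.111 and Mlkl at 2.92 ± 0.649 RPKM (SD, n = 2). Each step in this order exceeded 1 SD on each side. Zbp1 was close to 0 in both sets of organoids, at 0.0458 ± 0.0417 and 0.0171 ± 0.0241 RPKM. The experiments were prepared separately and the table of the KOIEC organoids uses other gene models for Ripk3 and Gsdmd, so levels were not compared between experiments.

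**Figure D1:**
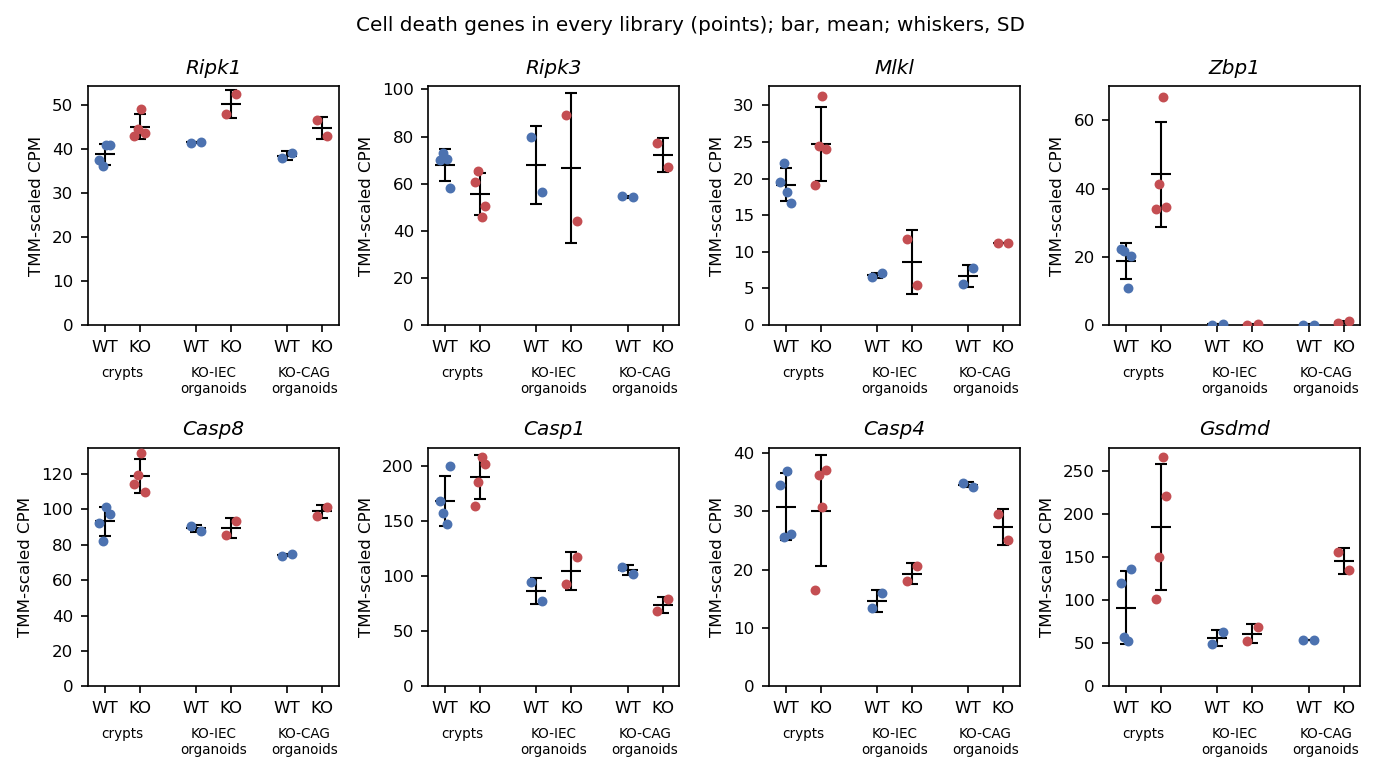
TMM-scaled CPM (vertical axis, linear, from 0) of each of the 8 genes in every WT and KO library of the 3 experiments, 4 crypt libraries and 2 organoid libraries a genotype; points are libraries, horizontal bars means and whiskers SD. Zbp1 is read in crypts and is near 0 in organoids, and Gsdmd is highest in KO crypts and KO-CAG organoids.

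The first comparison asked how the 8 genes differed in KOIEC crypts. In crypts 1 of the 8 genes, Zbp1, was called (adjusted p under 0.05), against 6.96% of the 13427 genes tested, 4.30% higher and 2.66% lower in KO. The median log2 fold change of the 8 was 0.28, against -0.01 over all genes tested. The WT and KO libraries did not overlap for 3 of the 8, Ripk1, Zbp1 and Casp8, all higher in KO, against 17.5% of all genes in either direction, 8.70% higher and 8.79% lower in KO. All values that follow are TMM-scaled CPM in the order of replicates 1 to 4, with log2 fold changes of KO over WT and their SE.

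Zbp1, the nucleic acid sensor, was at 22.2, 21.7, 10.8 and 20.3 CPM in WT crypts and at 33.9, 41.2, 66.7 and 34.7 in KOIEC crypts. Every KO library was above every WT library, KO replicate 3 stood highest and WT replicate 3 lowest. The log2 fold change was 1.24 ± 0.28 (95% interval 0.61 to 1.86, 2.36-fold, edgeR adjusted p = 0.0441, exact two-sided permutation p = 0.0286, the smallest that 4 against 4 allows). Within classes of mitochondrial ribosomal RNA the difference was 1.02 log2 CPM in the low class and 0.77 in the middle class, with only 1 WT library in each. When the class entered the fit as a covariate the log2 fold change was 0.96 (edgeR adjusted p = 0.233), and with the 2 high-class WT libraries left out it was 1.05 (edgeR adjusted p = 0.391). The call was also lost without WT replicate 1, 2 or 3 or KO replicate 2 or 3 (edgeR adjusted p = 0.106, 0.126, 0.127, 0.114 and 0.0917).

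The lymphocyte markers were summed over the same libraries. Their sum was 87.7, 68.9, 25.03 and 127 CPM in WT crypts and 59.4, 81.6, 402 and 218 in KOIEC crypts. The groups overlapped, with the lowest value in WT replicate 3 and the highest in KO replicate 3, the same libraries as for Zbp1. KO replicates 1 and 2, with 59.4 and 81.6 CPM, lay within the WT range, while their Zbp1 was above every WT library. Of the 10 markers 9 were tested and Cd2 was not. None of the 9 was called by edgeR, 1 had an unadjusted p under 0.05, and their median log2 fold change was 1.26. Stromal markers summed to 14.5 to 18.6 CPM in WT crypts and to 7.61 to 11.4 in KOIEC crypts, and myeloid markers to 30.5 to 42.4 and 23.7 to 30.7. None of the 4 stromal markers tested was called by edgeR. The myeloid list was mixed: of 6 markers tested 1 was called higher and 0 lower in KO. Its median log2 fold change was -0.53, with 2 of the 6 above 0. B cell markers summed to 10.4 to 30.9 CPM in WT and to 7.25 to 12.9 in KOIEC crypts, and 1 of 5 tested was called lower. Paneth cell markers summed to 9852, 8406, 15329 and 14680 CPM in WT crypts and to 9846, 6380, 1673 and 15433 in KOIEC crypts. KO replicate 3 was thus the lowest, and none of the 5 Paneth cell markers was called by edgeR. The part of these cell types in the Zbp1 difference was not tested. In bulk samples fewer cells of a type and less RNA per cell cannot be told apart.

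Casp8, the protease that restrains necroptosis and starts extrinsic apoptosis, was at 92.0, 81.9, 101 and 97.4 CPM in WT crypts and at 114, 119, 132 and 109 in KOIEC crypts. The KO libraries were all higher, by 0.35 ± 0.10 on the log2 scale (edgeR adjusted p = 0.0591, exact permutation p = 0.0286), which missed the threshold. The difference was 0.40 in the low class and 0.17 in the middle class. Ripk1, the death receptor kinase and scaffold, was at 37.4, 36.0, 40.9 and 40.8 CPM in WT and at 42.8, 44.5, 49.1 and 43.7 in KO crypts. Again no library overlapped, and the difference of 0.22 ± 0.09 was not called (edgeR adjusted p = 0.128, exact permutation p = 0.0286).

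The kinase and its effector gave values in opposite directions, neither of them called. Ripk3 was at 70.2, 73.2, 70.4 and 58.0 CPM in WT crypts and at 60.7, 65.4, 45.9 and 50.6 in KO crypts, a log2 fold change of -0.29 ± 0.13 (edgeR adjusted p = 0.161). Mlkl was at 19.5, 22.1, 18.2 and 16.7 CPM in WT and at 19.1, 24.4, 31.3 and 24.0 in KO crypts, a log2 fold change of 0.37 ± 0.16 (edgeR adjusted p = 0.145). Both sets of libraries overlapped between genotypes.

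Gsdmd, the pore-forming substrate, varied most between crypt libraries of 1 genotype. It was at 120, 57.4, 53.0 and 136 CPM in WT crypts and at 102, 150, 266 and 220 in KOIEC crypts. WT replicates 2 and 3, the high-class libraries, were the lowest, and KO replicate 1 fell within the WT range. The log2 fold change was 1.01 ± 0.38 (95% interval 0.17 to 1.85, edgeR adjusted p = 0.105, exact permutation p = 0.114). It was 0.41 in the low class and 0.69 in the middle class, 0.59 with the class as a covariate (edgeR adjusted p = 0.366) and 0.52 without the high-class libraries (edgeR adjusted p = 0.531), while without KO replicate 1 it was 1.21 and passed the threshold (edgeR adjusted p = 0.0480). The 6 markers of mature enterocytes summed to 4065, 2016, 1438 and 6277 CPM in WT crypts and to 5429, 8633, 12868 and 12441 in KO crypts, with the same pair of WT libraries lowest and KO replicate 3 highest. None of the 6 was called by edgeR, while all 6 had an unadjusted p under 0.05, with a median log2 fold change of 1.57. Their part in the Gsdmd values was not tested.

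Among the inflammatory caspases no difference was called in the crypts. Casp1 was at 168, 157, 147 and 200 CPM in WT and at 163, 185, 208 and 201 in KO crypts (0.17 ± 0.12, edgeR adjusted p = 0.351). Casp4 was at 34.5, 25.6, 36.8 and 26.0 CPM in WT and at 16.5, 36.2, 30.6 and 37.0 in KO crypts (-0.03 ± 0.24, edgeR adjusted p = 0.945). Both ranges overlapped, and KO replicate 1 held the lowest Casp4 value of the 8 libraries.

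**Figure D2:**
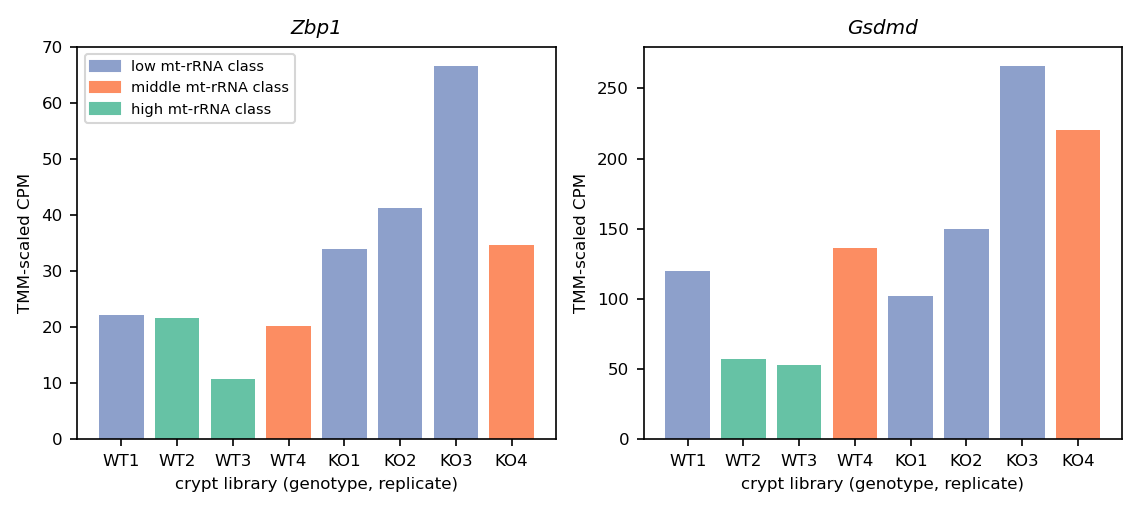
Zbp1 (left) and Gsdmd (right) in the 8 crypt libraries, as TMM-scaled CPM on linear axes from 0, with bars coloured by the class of mitochondrial ribosomal RNA (mt-rRNA) of the library. Zbp1 is higher in all 4 KO libraries, and Gsdmd is lowest in the 2 high-class WT libraries, at 57.4 and 53.0 CPM.

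The second comparison asked whether the same deletion gave the same differences once the epithelium was cultured. In KOIEC organoids none of the 7 genes tested was called, 0 of the 7 at an unadjusted p under 0.05 by edgeR and 0 called by DESeq2, against 0.00717% of the 13938 genes tested, which was Cul4b alone. Whether this share, or the lack of calls in the pathway lists below, depends on 1 library cannot be decided. Leaving out KO replicate 1 or 2 leaves a lone KO library without a spread of its own. Over all genes, 107 were called higher and 116 lower with no filter on low counts, and 5 and 21 with DESeq2. The biological coefficient of variation was 0.280 in the KOIEC organoids, against 0.0815 in the KOCAG organoids. The median log2 fold change of the 7 was 0.28, against -0.01 over all genes. Ripk1 and Casp4 did not overlap between genotypes and were higher in KO, 2 of 7 against 38.9% of all genes in either direction and 19.4% higher in KO. With 2 against 2 libraries the smallest permutation p is 0.333, and no such p is given.

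Ripk1 was at 41.3 and 41.5 CPM in WT and at 48.0 and 52.5 in KOIEC organoids, a log2 fold change of 0.28 ± 0.16 (95% interval -0.15 to 0.70, edgeR adjusted p = 0.856). Casp4 was at 13.4 and 15.99 CPM in WT and at 18.0 and 20.5 in KO organoids (0.39 ± 0.23, 95% interval -0.21 to 1.00). Casp8 was at 90.7 and 87.9 CPM in WT and at 85.4 and 93.3 in KO organoids (0.00099 ± 0.15, 95% interval -0.38 to 0.39). The KO libraries of Casp8 bracketed those of WT.

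Ripk3 and Mlkl differed more between the KO replicates than between genotypes. Ripk3 was at 79.7 and 56.3 CPM in WT and at 89.0 and 44.1 in KOIEC organoids (-0.03 ± 0.38, 95% interval -1.02 to 0.96). Mlkl was at 6.56 and 7.03 CPM in WT and at 11.7 and 5.47 in KO organoids (0.34 ± 0.43, 95% interval -0.78 to 1.46). Enterocyte markers summed to 5101 and 9033 CPM in WT and to 3485 and 11457 in KO organoids, so that in each genotype the replicate with the higher Ripk3 value had the lower enterocyte sum; the part of this difference between replicates was not tested.

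Casp1 was at 94.8 and 77.8 CPM in WT and at 92.4 and 117 in KOIEC organoids (0.28 ± 0.20, 95% interval -0.24 to 0.80). Gsdmd was at 49.3 and 62.6 CPM in WT and at 53.3 and 69.1 in KO organoids (0.13 ± 0.22, 95% interval -0.44 to 0.70). Both overlapped between genotypes. The upper bound for Gsdmd was below the 1.01 fitted in the crypts, but the difference between both experiments was not called (0.87 ± 0.56, edgeR adjusted p = 0.818). Zbp1 had 1 and 4 counts in WT and 0 and 3 in KO organoids, too few to be tested. The ratio of the summed CPM was 0.599 with an exact 95% interval of 0.0930 to 3.08, which covers counting error only.

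The third comparison asked the same of organoids in which Cul4b was deleted after culture had begun. In KOCAG organoids 5 of the 7 genes tested were called, against 31.5% of the 13598 genes tested. Ripk3, Mlkl, Casp8 and Gsdmd rose, 4 of 7 against 18.1% called higher, and Casp1 fell, 1 of 7 against 13.4% called lower. A fold of at least 2 was reached by Gsdmd alone, 1 of 7 against 8.60%. WT and KO libraries did not overlap for any of the 7, 5 higher and 2 lower in KO, against 69.7% of all genes, 35.5% higher and 34.2% lower, and the median log2 fold change was 0.40, against 0.00 over all genes.

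Gsdmd was at 54.1 and 53.5 CPM in WT and at 156 and 135 in KOCAG organoids. The KO libraries stood far above the WT pair, by 1.43 ± 0.10 on the log2 scale (95% interval 1.22 to 1.65, 2.70-fold, edgeR adjusted p = 9.25e-06). Enterocyte markers moved with it: their sum was 3616 and 3965 CPM in WT and 10256 and 8214 in KO organoids, and 5 of the 6 (Alpi, Apoa4, Krt20, Fabp1 and Apoa1) rose. Paneth cell markers summed to 3915 and 3512 CPM in WT and to 6316 and 5963 in KO organoids (4 of 5 rose). The 6 epithelial markers summed to 5696 and 5392 against 7761 and 7025. That list was mixed, with 3 called higher, 1 lower and 2 not called. The sums of stromal markers (13.1 to 17.4 against 22.3 to 25.3 CPM) and of myeloid markers (14.9 to 17.9 against 21.3 to 22.7 CPM) were also higher in both KO libraries. Only 1 of the 8 stromal and 3 of the 8 myeloid markers had enough counts to be tested, and 1 in each list was called higher. Over all genes 35.5% did not overlap and were higher in KO, so these low sums are no measure of such cells. The part of these marker groups in the Gsdmd difference was not tested.

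Casp1, the inflammasome protease that cleaves gasdermin D, was at 109 and 102 CPM in WT and at 68.8 and 79.3 in KOCAG organoids. It fell by 0.50 on the log2 scale with an SE of 0.09 (0.706-fold, edgeR adjusted p = 0.00285), opposite in sign to its substrate. Casp4 was at 34.8 and 34.2 CPM in WT and at 29.5 and 25.1 in KO organoids, a log2 fold change of -0.35 ± 0.12 that missed the threshold (edgeR adjusted p = 0.0576). It passed without KO replicate 1 (-0.48, edgeR adjusted p = 0.00860). Both inflammatory caspases were thus lower in each KO library than in each WT library.

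Of the necroptosis genes, Casp8 was at 73.8 and 74.8 CPM in WT and at 96.2 and 101 in KOCAG organoids, a rise of 0.41 ± 0.08 (1.33-fold, edgeR adjusted p = 0.00417). Ripk3 was at 54.6 and 54.2 CPM in WT and at 77.2 and 67.1 in KO organoids (0.40 ± 0.10, 1.32-fold, edgeR adjusted p = 0.0117). Mlkl was at 5.66 and 7.77 CPM in WT and at 11.3 and 11.3 in KO organoids (0.75 ± 0.22, 1.68-fold, edgeR adjusted p = 0.0262). The kinase and its effector were both higher in each KO library. DESeq2 did not call Ripk3 or Mlkl (adjusted p = 0.0622 and 0.161). The Ripk3 call was lost without WT replicate 1 or 2 (edgeR adjusted p = 0.0542 and 0.0653) and the Mlkl call without WT replicate 1 (0.52, edgeR adjusted p = 0.225). In the fit of all 16 libraries, where the experiments share 1 estimate of the spread, none of the 5 genes called in KOCAG organoids passed (edgeR adjusted p = 0.0948 to 0.429).

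Ripk1 was at 37.8 and 39.1 CPM in WT and at 46.6 and 43.0 in KOCAG organoids, a log2 fold change of 0.22 ± 0.10 that was not called (edgeR adjusted p = 0.143). Zbp1 was counted 1 and 0 times in WT and 5 and 12 times in KO organoids and was removed by the filter on low counts. The ratio of its summed CPM was 15.2 with an exact 95% interval of 2.38 to 634, which covers counting error only. Without the filter edgeR gave Zbp1 an adjusted p of 0.0114, and in the fit of all 16 libraries an adjusted p of 0.129. These counts were at most 1.15 CPM, against 10.8 to 66.7 CPM in the crypts.

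**Figure D3:**
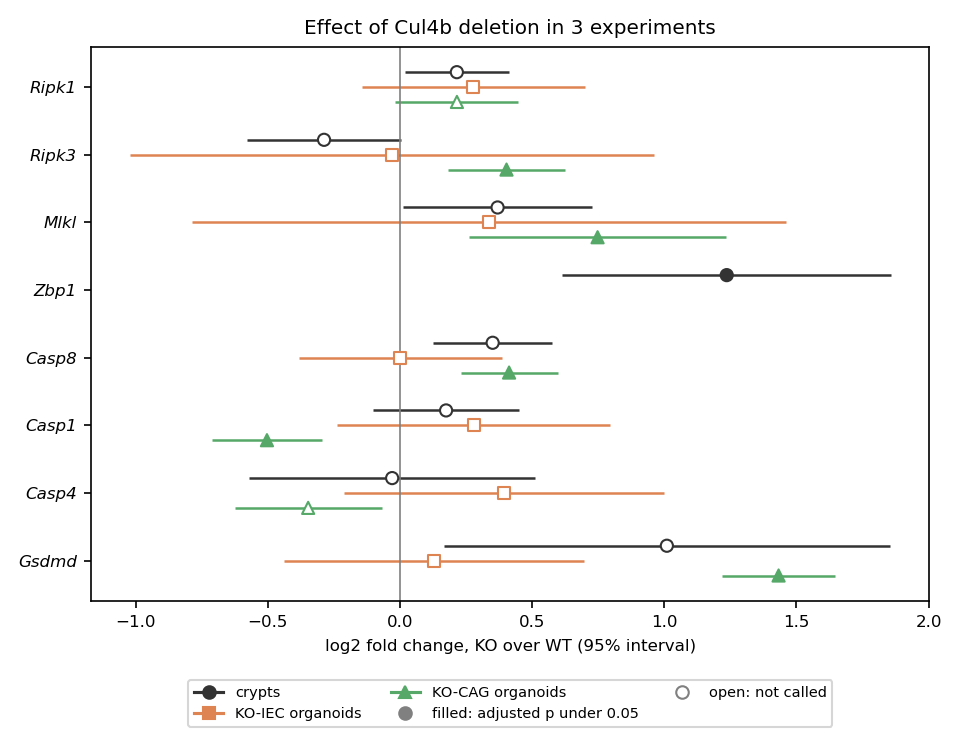
Log2 fold change of KO over WT with its 95% interval (horizontal axis) for each of the 8 genes in crypts, KO-IEC organoids and KO-CAG organoids; filled symbols mark an edgeR adjusted p under 0.05. Zbp1 is called in crypts and was not tested in organoids, and 5 genes are called in KO-CAG organoids, with Gsdmd at 1.43 and Casp1 at -0.50.

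Whether the response to the deletion differed between the experiments was tested as the difference of log2 fold changes in 1 fit of all 16 libraries over 15585 genes. No difference was called for any member in the 3 pairs of experiments, against 0.00642% of genes called for crypts against KOIEC organoids, 0.372% for crypts against KOCAG organoids and 0.385% for the 2 organoid experiments. At an unadjusted p under 0.05 there were 5 of the 24 differences: Casp1 in 2 pairs, Casp8 in 2 pairs and Zbp1 in 1, and DESeq2 called 0. Casp1 came closest. It was higher by 0.69 ± 0.22 in the crypt effect than in the KOCAG effect (edgeR adjusted p = 0.173), and the KOCAG effect was lower than the KOIEC organoid effect (-0.81 ± 0.26, edgeR adjusted p = 0.246). For Ripk3, which had fitted values of -0.29 in crypts and 0.40 in KOCAG organoids, the difference was -0.68 ± 0.32 (95% interval -1.37 to 0.01, edgeR adjusted p = 0.351).

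Gsdmd differed by -0.41 ± 0.56 between crypts and KOCAG organoids (95% interval -1.62 to 0.79) and by 1.28 ± 0.65 between the KOCAG and KOIEC organoids (95% interval -0.12 to 2.68, edgeR adjusted p = 0.517). Ripk1 was the most even member, with differences of -0.07, 0.01 and -0.08 in the 3 pairs and intervals within -0.44 to 0.33. The Zbp1 differences rest on the few organoid counts.

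The genes whose levels followed each of 7 members most closely were read over the 16 libraries, after centring log2 CPM within each experiment, among the 12478 genes tested in all 3 experiments. The libraries share their genotype and composition, so the coefficients are descriptions. Gsdmd was closest to Ms4a10, Osgin1 and Mogat2 (Pearson r = 0.975, 0.973 and 0.971), of which Mogat2 encodes an enzyme of triacylglycerol synthesis in enterocytes. Ripk3 was closest to Foxa1, Scmh1 and Psmc3 (0.963, 0.961 and 0.954), and the genes closest to Ripk1 included Tulp4 and Pde4dip (0.949 and 0.939). Casp1 was closest to Wdr13, Hsd17b2 and 4632415L05Rik (0.959, 0.943 and 0.938), and Casp8 to Itfg1, Dgat2 and Sec24d (0.915, 0.892 and 0.891). The lowest coefficients were those of Mlkl with Slc5a6, Cpne2 and Cstf2t (0.871, 0.860 and 0.846) and of Casp4 with Gm8325, Nmrk1 and 2810459M11Rik (0.778, 0.775 and 0.759). Zbp1 was not among these genes, since it was not tested in organoids, and none of the other 7 members was among the 3 genes closest to another.

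The other genes of these pathways were counted in the same fits. Of 22 genes of the TNF receptor complex, the necroptosis adaptors and their inhibitors, all tested in each experiment, 4 rose and none fell in crypts (median log2 fold change 0.16), where 4.30% of all genes were called higher and 2.66% lower. They were Tlr3, a sensor of double-stranded RNA (0.66 ± 0.15), Cflar, the inhibitory partner of caspase-8 (0.56 ± 0.15), the kinase Tbk1 (0.56 ± 0.13) and the death receptor Tnfrsf10b (0.53 ± 0.13). In KOIEC organoids 0 of the 22 were called by edgeR and by DESeq2, with 1 at an unadjusted edgeR p under 0.05. In KOCAG organoids 8 rose and 1, Birc2, fell (median 0.28), against 18.1% called higher and 13.4% lower over all genes. The largest rises were in the receptors Fas (1.03 ± 0.24), Tnfrsf10b (0.90 ± 0.15) and Tnfrsf1a (0.70 ± 0.11) and in the adaptor Ticam1 (0.56 ± 0.12). Birc2 was no longer called without KO replicate 1, WT replicate 1 or WT replicate 2, and 2 of the 22 were called in the fit of all 16 libraries.

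Of 29 genes of inflammasomes, gasdermins, interleukin-1 family substrates and membrane rupture, 21 were tested in crypts, where only Ninj1, which mediates plasma membrane rupture, was called (-0.47 ± 0.11, median of the list 0.38), against 6.96% of all genes. None of 16 tested was called in KOIEC organoids by edgeR or DESeq2, with 6 at an unadjusted edgeR p under 0.05. With no filter on low counts, edgeR called 2 of 22 higher there. In KOCAG organoids 5 of 15 rose, against 18.1% of all genes, and 2 fell, against 13.4% (median -0.05). Il18, a cytokine matured by caspase-1, rose from 6.56 to 21.9 CPM (1.75 ± 0.18), and Pycard, the adaptor that joins sensors to caspase-1, fell by 0.87 with an SE of 0.09. Nlrp9b (0.81 ± 0.26) and Naip5 (0.37 ± 0.12) also rose, although both have near-identical neighbouring copies, so that their counts are uncertain. The genes that rose numbered 1 without KO replicate 1, 1 without WT replicate 1, 3 without WT replicate 2 and 0 in the fit of all 16 libraries.

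Of 25 other caspases and genes of the mitochondrial apoptosis machinery, 24 were tested in crypts, where 2 rose and 1 fell (median 0.18), against 4.30% and 2.66% of all genes. The caspase inhibitor Xiap was among those that rose (0.55 ± 0.10), while Casp12 fell by 1.79 with an SE of 0.35. None of 23 tested was called in KOIEC organoids by edgeR or DESeq2, with 0 at an unadjusted edgeR p under 0.05. In KOCAG organoids 13 of 23 rose and 1, Casp2, fell (median 0.48), against 18.1% and 13.4% of all genes. The largest rises were in the BH3-only gene Bbc3 (1.15 ± 0.14), the pore former Bax (1.09 ± 0.08), its antagonist Bcl2l1 (0.88 ± 0.11) and Cycs, which encodes cytochrome c (0.77 ± 0.08). In the fit of all 16 libraries 5 of the 23 were called. The list thus held risen genes that promote apoptosis and risen genes that restrain it.

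Interferon-stimulated genes were counted because Zbp1 is 1 of them. Of 22, all tested in crypts, 14 rose and none fell, against 4.30% and 2.66% of all genes, with a median log2 fold change of 1.14 against -0.01 over all genes. The largest were Usp18 (2.23 ± 0.28), Ifit3 (2.12 ± 0.30), Rtp4 (1.90 ± 0.29) and Oas2 (1.88 ± 0.33). With the mitochondrial class as a covariate, or without the high-class libraries, 0 of the 22 were called by edgeR. The loss was general: over all genes 577 were called higher and 357 lower, but 1 and 1 with the covariate and 0 and 1 without the high-class libraries. Without WT replicate 2, KO replicate 2 or KO replicate 3 there were 2 and 1, 1 and 1, and 1 and 1 over all genes. Of the 22, without WT replicate 1 there were 6, without WT replicate 3 there was 1, and without WT replicate 2 or KO replicate 2 or 3 there were 0. The calls of the other 3 lists in crypts were all lost under these same settings, and the death receptor and inflammasome calls also without KO replicate 4, where 1 gene of the apoptosis list was called higher and 1 lower. Without KO replicate 1 the genes that rose were 7 in the death receptor list, 4 in the inflammasome list and 4 in the apoptosis list, against 4, 0 and 2.

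In KOIEC organoids none of the 16 interferon-stimulated genes tested was called by edgeR or DESeq2, with 1 at an unadjusted edgeR p under 0.05 and a median of -0.01. In KOCAG organoids 10 of 17 rose and 1, Irf8, fell, against 18.1% and 13.4% of all genes, with a median of 0.72. Isg15 (2.49 ± 0.41), Ifit1 (2.16 ± 0.32) and Rsad2 (2.06 ± 0.49), all antiviral effectors, and the transcription factor Irf7 (1.85 ± 0.24) led, at KO means of 4.72, 7.37, 2.16 and 28.6 CPM. Of the 15 genes of this list with a promoter entry, 7 had the interferon-stimulated response element core, against 3.46% of all genes with an entry.

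**Figure D4:**
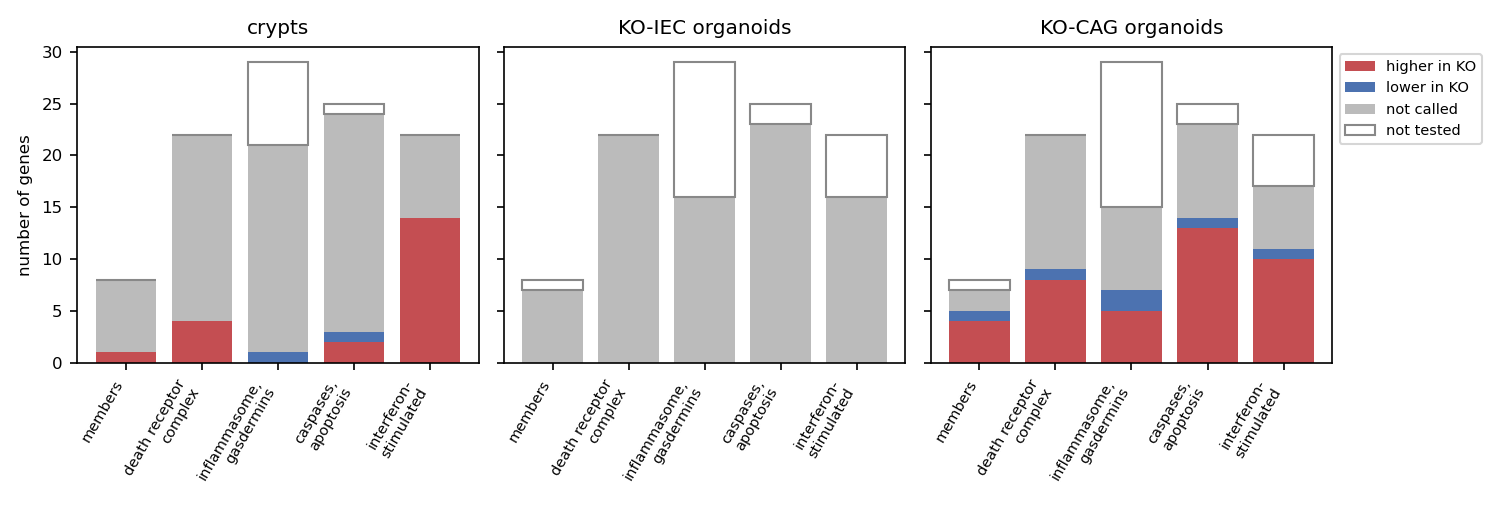
Number of genes (vertical axis) called higher in KO, called lower in KO, not called and not tested, for the 8 members and 4 pathway lists in crypts, KO-IEC organoids and KO-CAG organoids. Interferon-stimulated genes have the most calls in crypts, 14 of 22, the apoptosis list has the most in KO-CAG organoids, 14 of 23 tested, and no gene of any list is called in KO-IEC organoids.

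Some members share positions with other annotated genes. On GRCm38, Ripk1 (chr13:34002363-34037147, plus strand) overlaps 432 bases of the antisense gene Serpinb6a and the processed pseudogenes Gm17083 and Gm17084. Mlkl (chr8:111311797-111338177, minus strand) overlaps the pseudogene Gm45712, and Casp8 (chr1:58795374-58847503, plus strand) overlaps the unclassified transcript Gm37760 on the same strand. Whether counting used strand is not given in the sources used here, so reads of such partners cannot be told apart. Casp1 (chr9:5298517-5307265) and Casp4 (chr9:5308828-5336783), neighbours on the plus strand, Ripk3 (chr14:55784996-55788857, minus strand), Zbp1 (chr2:173206612-173218923, minus strand) and Gsdmd (chr15:75862339-75867404, plus strand) have no overlapping gene in the annotation.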

How the data were processed

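RNA was sequenced in 16 libraries of crypts and organoids. The authors deposited raw read counts per gene, 1 table per experiment, without normalization. The submitters' processing notes name HISAT2 2.0.5 and featureCounts 1.5.0-p3, and strand use is not given in the sources used here. Positions in the tables were compared with GENCODE M21 on GRCm38, and 95.2% and 98.3% of matched genes had the same start and end.

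Groups came from the sample titles. Each experiment was fitted alone, KO against WT, using filterByExpr, TMM factors and quasi-likelihood F tests (edgeR 4.0.16, R 4.3.3). Adjusted p-values follow Benjamini and Hochberg and cover every gene tested. Called means an adjusted p under 0.05. The prior count for log2 CPM was 2, and an SE is the absolute log2 fold change over the root of F. The fit was also run on data simulated from its own estimates of level and spread, and the outcome is not reported here. The classes of mitochondrial ribosomal RNA (mt-Rnr1 plus mt-Rnr2, without TMM) have bounds at 100 and 2000 CPM. Floors of 3 counts and intervals cover counting error only. The alternatives were DESeq2 1.42.0, other scalings and filters, a replicate block, the class covariate, all libraries in 1 fit, a fold of 2 and leaving out each library. Leaving out both high-class libraries was chosen after seeing the data.

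The members and lists were chosen with earlier results of these data known. Named are all members, up to 4 called genes per list and experiment with the largest change, Cul4b, and the 3 genes closest to each member. Some items that this rule names are not reported here. Genes with a count of 5 or fewer calls outside this rule (Birc2, Casp2, Irf8), the markers named beside a result and the genes overlapping a member were named after their values were seen. Promoter sequences are those of RefSeq on GRCm38.p6, matched by symbol for 6 of the 8 members. Motifs were searched in the 250 bases upstream of the start. Deviations of libraries from their group mean were correlated between genotypes to check for pairing. In crypts r was -0.395 to 0.434 for the same number and -0.474 to 0.486 for other numbers. It was 0.342 in KOIEC organoids and 0.0669 in KOCAG organoids for the same number. With 2 libraries a genotype, other numbers give the same r with opposite sign, so pairing cannot be decided there. The numbers were not taken as pairs, and the replicate block is given as an alternative.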

Additional observations from a re-analysis of the deposited data

Results flagged for a closer look

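In the WT crypt libraries, Zbp1 in replicate 3 was set apart from the rest: its gap to the nearest library over the range of the 4 was 0.829387, just above the 95% critical value of Dixon for 4 samples. That library was at 10.8 CPM and the other 3 at 20.3 to 22.2 CPM. Chance sets apart about 1 in 20 such groups. All 8 members were checked in both crypt genotypes, so a flag of this kind can arise by chance. Without it the crypt log2 fold change of Zbp1 was 1.04 (edgeR adjusted p = 0.127).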

How the results depend on the processing

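The 5 KOCAG calls and the crypt Zbp1 call kept their direction under every alternative run. The number of members called in crypts was 1, and became 2 with no filter on low counts, 3 with DESeq2, 2 with all 16 libraries in 1 fit, 0 with the mitochondrial RNA class as a covariate, 0 without the 2 high-class libraries, and 0 to 2 when each library was left out. The genes gained were Gsdmd without the filter (edgeR adjusted p = 0.0479), Gsdmd and Casp8 with DESeq2 (0.0306 and 0.0196), and Casp8 in the joint fit (edgeR adjusted p = 0.0275). With the replicate block it was 0 in crypts (Zbp1 1.21, edgeR adjusted p = 0.0947), 0 in KOIEC organoids and 6 in KOCAG organoids, where Casp4 was added (edgeR adjusted p = 0.0360). The replicate block left 3 crypt genes higher and 1 lower, against 577 and 357. Library sizes alone gave 324 higher and 311 lower crypt genes. In KOCAG organoids 5 members were called, 1 with a fold of at least 2, 3 with DESeq2 (Ripk3 0.0622, Mlkl 0.161), 0 with all 16 libraries in 1 fit (edgeR adjusted p = 0.0948 to 0.429) and 3 to 6 without 1 library, which assumes that a lone library varies like the other group. The members called in KOIEC organoids were 0 under all alternatives run.

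Some uncalled values changed sign. Casp4 in crypts was 0.0075 with the class covariate and -0.13 to 0.17 without 1 library. In KOIEC organoids Casp8 was -0.051 with library sizes alone, -0.0031 with no filter, -0.0037 with at least 10 counts in every library and -0.00022 with the replicate block. Without 1 library, Casp8 ranged from -0.062 to 0.060, Ripk3 from -0.63 to 0.39, Gsdmd from -0.068 to 0.30 and Mlkl from -0.32 to 0.78. Of the lists, interferon-stimulated genes called higher in crypts ranged from 0 to 17 over the alternatives, and were 14 in the fit reported. In KOCAG organoids they were 3 to 12, against 10, with the lowest in the joint fit. Causes of these changes were not tested. Zbp1 had at most 12 counts in any organoid library, so its fold could not be measured closely there.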
